A study of Mus musculus with 8 samples.

Results

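The gene expression of wild-type thymic regulatory T cells was compared with that of wild-type conventional CD4 thymocytes, gene family by gene family. The 2 groups make up 4 of the 8 one-colour microarrays of the series, 2 biological replicates each. WT Tconv were wild-type mouse thymocytes that had kept CD4 and lost CD8 (CD4 single positive) and were sorted as low in CD25, the alpha chain of the interleukin-2 receptor. WT Treg were wild-type CD4 single-positive thymocytes sorted as positive for Foxp3, the transcription factor that defines regulatory T cells. Both were lysed straight after preparation, without culture, and neither age, sex nor strain of the mice, nor whether a sample pooled animals, is given in the labels. The other 2 groups, precursors labelled Nr4a-TKO and Foxp3-KO, enter only the shared estimate of the spread between replicates. Of the 21154 genes with a symbol on the array, 12855 had a probe well above background on both arrays of WT Treg or of WT Tconv, and these are the genes described.

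Regulatory T cells restrain immune responses. Those made in the thymus arise from CD4 thymocytes whose antigen receptor binds self ligands strongly, and receptor signals combine with costimulation through TNF receptors and CD28 and with interleukin-2 to switch on Foxp3. Conventional thymocytes of the same stage received weaker signals and leave the thymus as naive T cells, and the CD25-low gate also holds innate-like T cells that are selected in the thymus. The comparison asks how a regulatory cell and a conventional cell of one organ differ outside the genes by which regulatory cells are usually recognised.

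The sorted populations were first checked against their labels. Values are log2 signals relative to the 75th percentile of their own array, so that 0 is the level of that percentile. Foxp3 measured -3.57 and -3.95 in Tconv and 4.84 and 4.56 in Treg, a log2 difference (WT Treg minus WT Tconv) of 8.46 ± 0.22 (SE of the fit). Il2ra, which encodes CD25, measured -1.74 and -1.95 in Tconv and 5.73 and 5.64 in Treg. The gates act on both genes, and they are given as a check and not as a result. Cd4 and Cd3e were bright in all 4 samples, with Cd4 at 5.47 and 5.48 in Tconv and 4.84 and 4.90 in Treg, and Cd8a measured -1.29 and -1.08 in Tconv and -2.01 and -2.80 in Treg. Of the 10 markers of CD4 CD8 double-positive thymocytes, 5 were lower in Treg and 0 higher, and their summed linear signal was 86.3 and 85.7 in Tconv and 27.8 and 23.5 in Treg, in units of the 75th percentile of an array. Ccr9 and Dntt, whose values are given below, made up most of the Tconv sum and of its fall. The median marker measured -1.01 and -1.03 in Tconv and -1.47 and -1.92 in Treg. Of 22 tested markers of innate-like T and NK cells, 10 were lower in Treg and 1 higher, and their summed signal was 93.5 and 92.2 in Tconv and 51.8 and 48.6 in Treg. Macrophage and monocyte markers summed to 38.1 and 40.2 in Tconv and to 51.7 and 41.4 in Treg, and 16 and 13 of their 19 genes were above background on the Treg arrays against 7 and 8 on the Tconv arrays. Bright genes dominate such a sum. The median of the 13 tested markers measured -3.78 and -3.24 in Tconv and 0.40 and -1.35 in Treg, and 3 were higher and 0 lower. Among the 7 above background on all 4 arrays 1 was higher, with a median difference of 0.51. B cell markers were dim, at 2.22 and 2.26 in Tconv and 6.14 and 4.54 in Treg, and 4 of the 13 on the array were above background on none of the 4 arrays. A lower signal in such bulk RNA can come from fewer cells of a type or from less RNA per cell, which cannot be told apart here. Lower double-positive markers numbered 2 to 3 without 1 array and lower innate-like markers 5 to 8.

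The 8 arrays shared 1 slide, with 62976 spots each. Between 48.5% and 53.0% of the spots of an array were well above background, and signal at the 75th percentile exceeded the local background 8.90-fold to 10.4-fold. The 2 Treg samples correlated at r = 0.992 and the 2 Tconv samples at r = 0.997 over the genes tested, and genes are no independent replicates. Of the tested genes, 240 were at least 2-fold brighter in Treg replicate 1 than in replicate 2 and 108 the other way. The Tconv arrays lay in the first row of the slide and the Treg arrays in the second, so slide row and cell type cannot be told apart. The number of arrays limits the precision.

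Between WT Treg and WT Tconv, 4795 of 12855 genes (37.3%) passed the test (limma, Benjamini-Hochberg adjusted p under 0.05 over all tested genes). Of these, 1846 (14.4% of all tested) were higher in Treg and 2949 (22.9%) lower, and the median log2 difference over all genes was -0.10. Genes that passed and differed at least 2-fold numbered 1567 (12.2%), of which 911 were higher (7.09%) and 656 lower (5.1%). The replicates of the groups did not overlap for 10081 genes (78.4%; 29.6% with Treg higher and 48.8% with Treg lower), so that a lack of overlap alone says little. Without 1 array the number of passing genes was 1936 and 1877 (without Tconv replicate 1 or 2) and 2647 and 2614 (without Treg replicate 1 or 2). Counts within families moved too: of the 260 counts over families and their roles, 156 and 153 moved by over 1.5-fold without Tconv replicate 1 or 2, and 109 and 127 without Treg replicate 1 or 2. With arrays scaled to their median in place of the 75th percentile, all differences fell by 0.16, and 1416 genes were higher and 4560 lower. Small shifts of a family are therefore read below against the median of all genes. The plot of differences by family sets 19 families beside all genes. In what follows "higher", "lower" and "passed" refer to this test, "not called" means that the adjusted p was 0.05 or more, and the families were read against 14.4% higher and 22.9% lower over all genes.

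**Figure D1:**
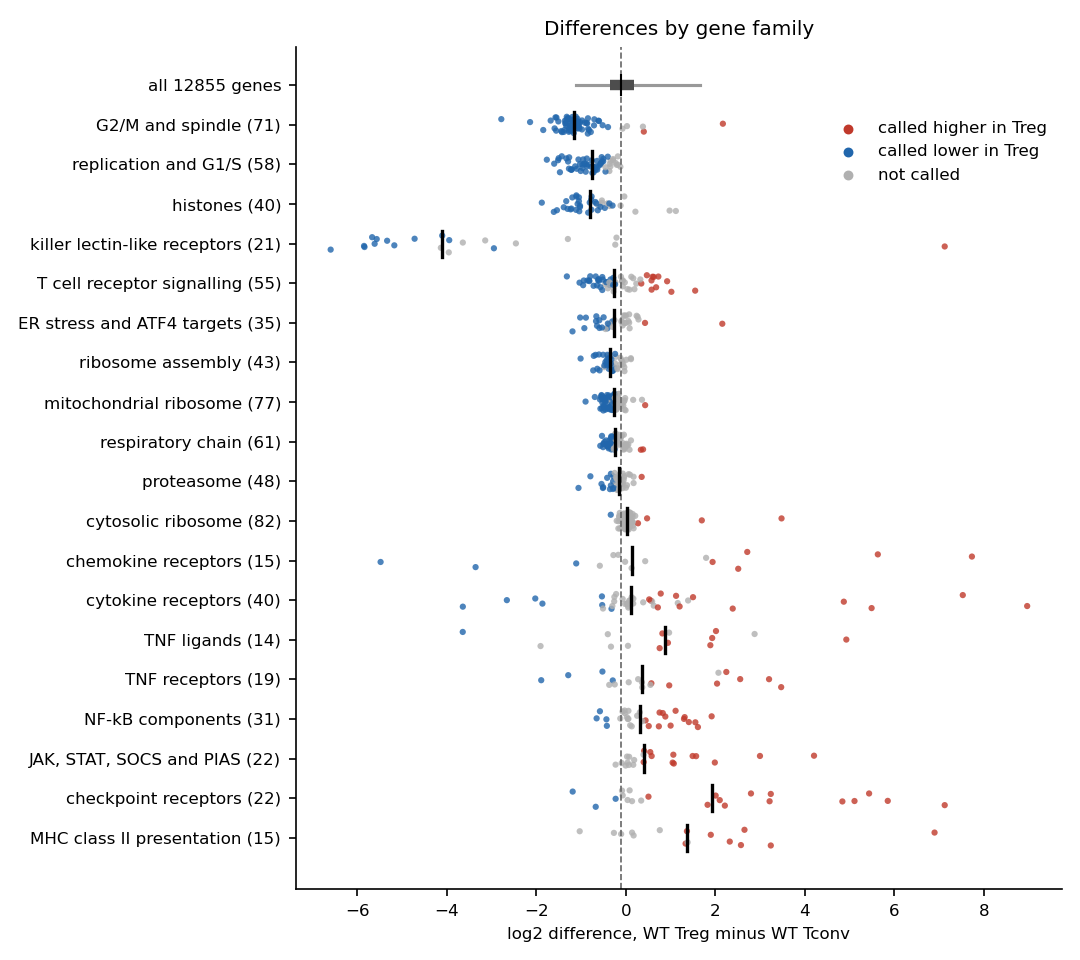
Log2 difference, WT Treg minus WT Tconv, of each tested gene (points) in 19 gene families, with the number of genes in brackets; red and blue points passed the test, black bars are family medians, genes below background in a group are drawn at their measured value, the dashed line is the median of all genes (-0.10), and the top row gives the 25th to 75th (thick) and 5th to 95th (thin) percentiles of all 12855 genes. The 3 cell cycle families lie almost wholly to the left, with medians of -1.16, -0.76 and -0.79, while NF-kB, JAK-STAT and checkpoint genes extend to the right.

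Genes of cell division were lower in Treg almost throughout. The G2/M and spindle list holds mitotic kinesins, kinetochore proteins, condensins and mitotic kinases, and 66 of its 71 tested genes were lower in Treg, 50 of them at least 2-fold. The median member measured 1.097 and 1.019 in the Tconv samples and -0.16 and -0.07 in the Treg samples. Kif23, a kinesin of the cytokinetic midzone, measured 1.52 and 1.40 in Tconv and -1.20 and -1.45 in Treg. Its difference of -2.78 ± 0.17 (adjusted p = 0.00035) was the largest fall of the list. Spc25, a kinetochore subunit, measured 3.89 and 3.83 in Tconv and 2.21 and 1.82 in Treg, a difference of -1.85 ± 0.15 (adjusted p = 0.000842). Neither gene's replicates overlapped between the groups. Iqgap3, a scaffold protein of dividing cells (-2.14), the kinesin Kif11 (-1.57), topoisomerase Top2a (-1.56) and the proliferation marker Mki67 (-1.33) were lower as well. The exception in size was Smc4, the core ATPase of condensin, which measured 4.42 and 4.31 in Tconv and 6.48 and 6.58 in Treg and was higher in Treg by 2.17 ± 0.13 (adjusted p = 0.000336). Its partner in the condensin core, Smc2, measured 2.41 and 2.49 in Tconv and 1.39 and 1.56 in Treg, a difference of -0.98 ± 0.09 (adjusted p = 0.00138). Cdc25b, a phosphatase that activates cyclin-dependent kinases, was higher by 0.40, and Pttg1, Cenpa and Melk were not called. Cdc25b did not pass without any 1 of the 4 arrays (adjusted p = 0.111). Cdc25b also did not pass with median scaling.

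Replication and G1/S genes showed the same direction with smaller sizes. Of 58 tested, 46 were lower and 0 higher, 18 of the lower ones at least 2-fold, with a median difference of -0.76. Rrm2, the small subunit of ribonucleotide reductase, measured 3.99 and 4.03 in Tconv and 2.47 and 2.52 in Treg, a difference of -1.51 ± 0.08. Cdc6, which loads the replicative helicase, measured -0.25 and -0.26 in Tconv and -1.82 and -1.64 in Treg, a difference of -1.47 ± 0.08, and both were higher in each Tconv sample than in either Treg sample. E2f1, the transcription factor of the G1/S transition, was lower (-1.33) and so was Uhrf1 (-1.27), which guides maintenance DNA methylation. Histone genes followed, with 30 of 40 lower, 0 higher and a median of -0.79. The linker histone H1f5 measured 4.16 and 4.24 in Tconv and 2.34 and 2.31 in Treg, a difference of -1.88 ± 0.09 (adjusted p = 0.000195). Core histone genes are near-identical copies, so the split of signal among them is uncertain. The counts of lower G2/M, G1/S and histone genes stayed within 1.5-fold of these under all 17 alternative settings, leaving out each array included.

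**Figure D2:**
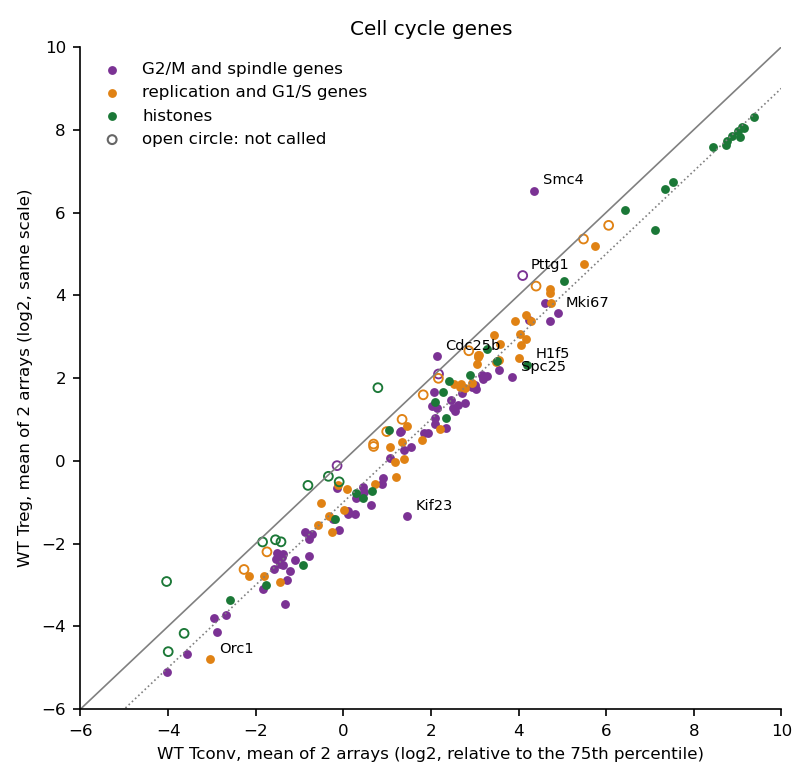
Mean log2 signal of 2 WT Treg arrays (vertical) against the mean of 2 WT Tconv arrays (horizontal) for 71 G2/M, 58 G1/S and 40 histone genes; filled circles passed the test, the solid line marks equal levels and the dotted line a 2-fold lower level in Treg. Most points lie below the solid line over the whole range of brightness, and Smc4 stands 2.17 above it.

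Promoters of genes on these lists often share letters, whether the genes passed or not. Mitotic promoters are known for a cell cycle genes homology region (CHR) beside CCAAT boxes, and G1/S promoters for E2F sites. Windows of 300 bases, from 250 before to 50 after the annotated start, came from RefSeq (GRCm38.p6), and both strands were searched. The CHR letters (TTTGAA or TTCGAA) were found in 43 of the 58 G2/M genes that were lower and had a window (74.1%), against 16.8% of the 10292 tested genes with a window and 19.2% of all 32851 windows. CCAAT was found in 72.4% of those G2/M genes and in 24 of 27 lower histone genes (88.9%), against 42.8% of tested genes and 37.4% of all windows. The E2F letters (TTCCCGC or TTGGCGC) were in 21 of 37 lower G1/S genes (56.8%), against 13.4% of tested genes and 6.8% of all windows. TTGGCGC can share TTGG with a CCAAT box on the other strand. Such a match is a description and not a bound site. Over all tested members with a window, called or not, CHR was in 72.6% and CCAAT in 71.0% of G2/M genes. CCAAT was in 80.0% of histone genes and the E2F letters were in 57.4% of G1/S genes. The shares thus describe the lists and not the fall in Treg. Shown are the stretches from 150 bases before to 30 after the start of Kif23 and Spc25, 2 of the 3 largest falls of the G2/M list, with CHR and CCAAT letters on either strand in capitals, and of Cdc6 with the E2F letters in capitals. The CHR begins at base 3 of the transcript in Kif23 (chr9:61946770-61946949, minus strand) and at base 25 in Spc25 (chr2:69206184-69206363, minus strand), and the E2F match begins 138 bases before the start of Cdc6 (chr11:98908001-98908180, plus strand).
Kif23: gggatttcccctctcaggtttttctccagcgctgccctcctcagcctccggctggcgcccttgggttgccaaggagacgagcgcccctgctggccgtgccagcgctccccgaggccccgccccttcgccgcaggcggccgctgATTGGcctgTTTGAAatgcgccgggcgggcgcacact
Spc25: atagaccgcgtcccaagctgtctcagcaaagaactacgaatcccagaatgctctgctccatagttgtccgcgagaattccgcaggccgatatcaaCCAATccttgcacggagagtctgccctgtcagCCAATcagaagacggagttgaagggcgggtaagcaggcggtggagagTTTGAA
Cdc6: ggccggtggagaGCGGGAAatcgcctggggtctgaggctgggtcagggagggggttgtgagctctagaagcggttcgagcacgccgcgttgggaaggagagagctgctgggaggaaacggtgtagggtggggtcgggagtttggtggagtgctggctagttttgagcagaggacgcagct

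Inhibitors of the cycle did not move as one block. Of 28 D cyclins, CDK inhibitors, pocket proteins and antiproliferative genes, 8 were higher and 6 lower. Cdkn1a, which encodes p21, was not well above background in Tconv and at least 4.0-fold higher in Treg (adjusted p = 0.00136). The stress-response genes Gadd45b (1.67) and Gadd45g (1.23), the retinoblastoma gene Rb1 (0.87) and Cdkn1b, which encodes p27 (0.65), were higher. The INK4 inhibitors went the other way, with Cdkn2c lower (-1.20) and Cdkn2a at least 2.16-fold lower. Ccnd3 (-0.76), the main D cyclin of thymocytes, and its kinase Cdk4 (-0.51) were lower, and Ccnd2 (-0.17) was not called. Lower cell cycle inhibitors numbered 2 to 3 without 1 array. Ccnd3 did not pass without a Tconv array or Treg replicate 1, nor Cdk4 without any 1 of the 4 arrays (adjusted p up to 0.119). Cdkn1a also did not pass with the probes of a gene averaged.

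TNF superfamily genes, which carry costimulation, held large differences in both directions. Among ligands, 7 of 14 were higher and 1 lower. Cd70, the ligand of CD27, was below background in Tconv and at least 10.5-fold higher in Treg (adjusted p = 0.00485). Cd40lg, the helper ligand that activates B cells and dendritic cells, was the 1 that fell, by at least 4.07-fold (adjusted p = 0.000569). Lta, which encodes lymphotoxin alpha, measured 1.09 and 1.16 in Tconv and 3.18 and 2.93 in Treg, a difference of 1.93 ± 0.11. Tnfsf8, the ligand of CD30, measured 1.14 and 1.21 in Tconv and 2.95 and 3.43 in Treg, a difference of 2.01 ± 0.36. Neither overlapped between groups. Tnf itself (-0.40) and Tnfsf11, which encodes RANKL (-0.33), were not called. Of 19 receptors, 7 were higher and 4 lower, and the 2 receptors of TNF went apart. Tnfrsf1a, the widely expressed receptor with a death domain, measured 3.45 and 3.42 in Tconv and 2.19 and 2.10 in Treg, a difference of -1.29 ± 0.09 (adjusted p = 0.000467). Tnfrsf1b, the receptor without one, measured -0.71 and -0.63 in Tconv and 2.001 and 1.77 in Treg, a difference of 2.55 ± 0.30 (adjusted p = 0.00242). Cd40, best known on antigen-presenting cells, was below background in Tconv and at least 8.91-fold higher in Treg (adjusted p = 0.00754). Fas was higher by 0.97, and Fasl measured 0.64 and 0.64 in Tconv and -1.22 and -1.31 in Treg and was not called (adjusted p = 0.0656). In a fit of the 4 wild-type arrays alone Fasl passed, at an adjusted p of 0.000658. Higher TNF ligands numbered 4 to 6 without 1 array and lower TNF receptors 1 to 2. Tnfsf8 did not pass without a Tconv array or Treg replicate 2 (adjusted p = 0.0612).

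Downstream of these receptors, NF-kB genes were higher at the level of subunits and feedback inhibitors and not at that of the kinases. NF-kB dimers are held in the cytoplasm by inhibitors that are themselves NF-kB targets. Of the 4 subunits tested, 3 were higher. Nfkb2, the precursor of p52, measured 1.48 and 1.56 in Tconv and 2.84 and 2.82 in Treg, a difference of 1.31 ± 0.08. Nfkb1 (0.88 ± 0.12) and Relb (0.74 ± 0.08) were higher by less, and Rela measured 5.72 and 5.64 in Tconv and 5.77 and 5.71 in Treg, a difference of 0.06 ± 0.07 that was not called. Of 13 inhibitors and feedback genes, 10 were higher and 1, Tnip2 (-0.58), lower. Without Tconv replicate 1, 6 of the 13 were higher. Bcl3, an atypical inhibitor that acts in the nucleus, measured 3.76 and 3.57 in Tconv and 5.28 and 5.16 in Treg, a difference of 1.55 ± 0.11 (adjusted p = 0.00051). Nfkbiz, of the same kind, measured -0.005 and 0.10 in Tconv and 1.29 and 1.61 in Treg, a difference of 1.41 ± 0.12 (adjusted p = 0.000985). Both were separated between the groups. Nfkbia (0.75), Nfkbie (1.11), the ubiquitin-editing enzyme Tnfaip3 (1.0) and the ubiquitin ligase Birc3 (1.30) were higher. Of 14 kinases and adaptors 10 were not called, the kinases Ikbkb (0.13), Chuk (-0.13) and Map3k14 (0.10) among them. Traf1, which is an NF-kB target, was the 1 adaptor that was higher, by 1.61 ± 0.10. Malt1 (-0.42), a protease that links the antigen receptor to NF-kB, was lower, and its partner Bcl10 (0.06) was not called. Lower kinases and adaptors numbered 0 without 1 array. Tnip2 did not pass without either Tconv array, nor Tnfaip3 without Tconv replicate 1, nor Malt1 without any 1 of the 4 arrays (adjusted p up to 0.13).

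**Figure D3:**
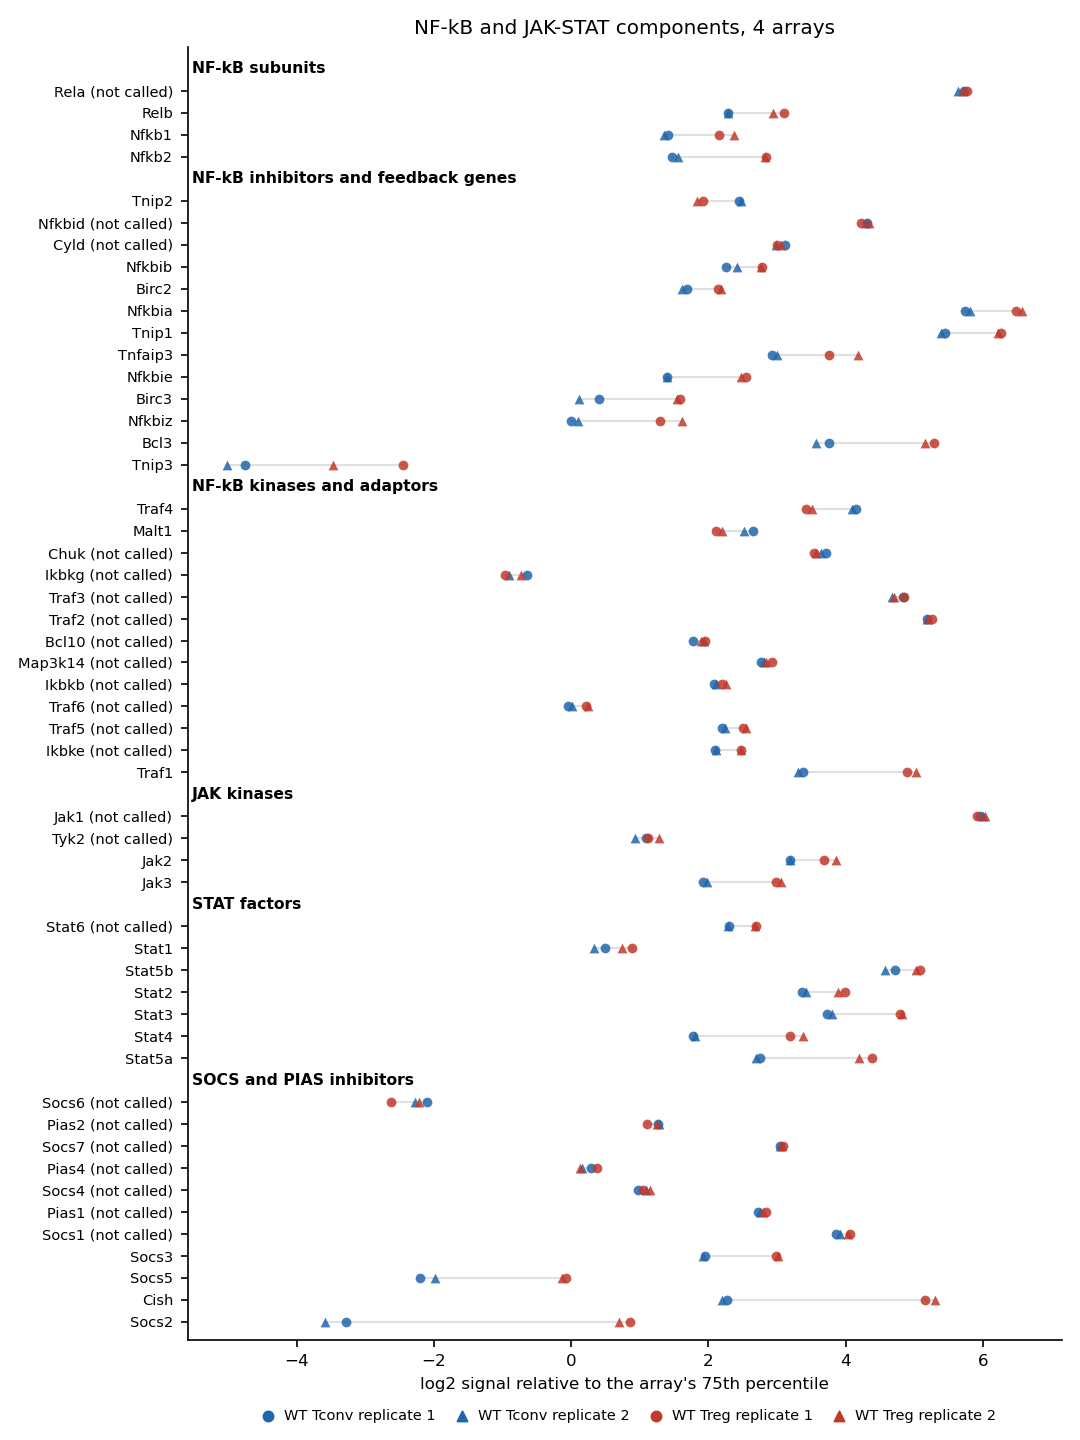
Log2 signal relative to the 75th percentile of each array for 30 of the 31 NF-kB and all 22 JAK-STAT genes, ordered within each group by difference; blue are WT Tconv and red WT Treg, circles replicate 1 and triangles replicate 2. Among NF-kB genes the red points stand to the right for 3 of 4 subunits and 10 of 13 inhibitors, and overlie the blue ones for most kinases; Cish and Socs2 show the widest gaps among JAK-STAT genes.

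The kappa B letters searched were GGGRNNYYCC, where R is A or G, Y is C or T and N is any base. A kappa B motif was found in the windows of 7 of the 11 higher NF-kB genes that had one (63.6%), against 12.1% of tested genes and 8.5% of all windows. Over the whole NF-kB list, called or not, it was in 11 of 25 genes with a window (44.0%). The list holds known NF-kB targets, so the share describes the list and is no evidence about the rise in Treg. Nfkb2, Bcl3 and Nfkbie are shown because they stand for a subunit and both kinds of inhibitor, with kappa B matches on either strand in capitals. Nfkb2 (chr19:46304587-46304766, plus strand) holds 3 matches, of which those 39 and 38 bases before the start overlap and 1 begins 11 bases before it. The match of Bcl3 (chr7:19822726-19822905, minus strand) begins at base 3 of the transcript and that of Nfkbie (chr17:45555550-45555729, plus strand) 106 bases before it. Nfkb2 has 3 annotated windows, of which 1 is shown.
Nfkb2: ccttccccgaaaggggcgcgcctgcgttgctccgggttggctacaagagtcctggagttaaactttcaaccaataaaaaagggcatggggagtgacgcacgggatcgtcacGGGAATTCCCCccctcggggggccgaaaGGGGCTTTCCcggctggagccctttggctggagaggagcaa
Bcl3: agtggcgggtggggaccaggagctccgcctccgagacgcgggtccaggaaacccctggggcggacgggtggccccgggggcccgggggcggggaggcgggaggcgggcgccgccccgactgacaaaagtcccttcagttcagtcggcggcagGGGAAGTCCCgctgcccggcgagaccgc
Nfkbie: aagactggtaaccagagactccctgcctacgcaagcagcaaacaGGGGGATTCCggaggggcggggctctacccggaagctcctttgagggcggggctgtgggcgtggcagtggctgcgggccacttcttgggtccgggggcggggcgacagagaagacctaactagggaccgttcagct

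Receptors of the interleukin-1 family held the largest rises among cytokine receptors, CD25 aside. Of 40 tested receptors of cytokines, 12 were higher and 7 lower. Il1r2, a decoy receptor that binds interleukin-1 without signalling, was below background in Tconv and at least 174-fold higher in Treg (adjusted p = 0.000558). Il1rl1, the receptor of interleukin-33, measured -2.96 and -3.23 in Tconv and 2.39 and 2.40 in Treg, a difference of 5.49 ± 1.18 (adjusted p = 0.0172). Kit, the receptor of stem cell factor, measured -3.69 and -3.62 in Tconv and 1.30 and 1.13 in Treg, a difference of 4.87 ± 0.24 (adjusted p = 0.000193). No sample of one group reached the other group for these genes, as for 78.4% of all tested genes. For Il1rl1 and Kit the rule that picked them required this. Il18r1, the interleukin-18 receptor, measured 2.84 and 2.78 in Tconv and 3.99 and 3.94 in Treg and was not called (adjusted p = 0.0866, or 0.00158 from the wild-type arrays alone). Shared signalling chains moved apart: Il6st, which encodes gp130, was higher by 1.12 ± 0.08 and Il10rb by 1.501 ± 0.17, while Il2rg, the common gamma chain, was lower (-0.53 ± 0.09). Ifngr1 was higher by 1.20 and Ifnar2 by 0.78. In the interleukin-17 receptor family Il17rb, which binds interleukin-25, measured 3.05 and 2.96 in Tconv and -0.55 and -0.73 in Treg, a difference of -3.64 ± 0.17 (adjusted p = 0.000177). Il17re and Il17rc were lower by at least 3.43-fold and 2.77-fold, and Il17ra, the chain they share, was higher by 0.52. Il7r was lower (-2.03) while Il2rb, the partner of the gated CD25, was higher by 2.39. Lower cytokine receptors numbered 2 to 3 without 1 array. Il1rl1, Il17re, Il17rc and Il17ra did not pass without any 1 of the 4 arrays, nor Il2rg without a Tconv array or Treg replicate 1, nor Ifngr1 without a Tconv array or Treg replicate 2 (adjusted p up to 0.196). Il17re and Il17rc also did not pass with normexp background, nor Il17rc with the probes of a gene averaged, nor Il17ra with median scaling.

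Every called gene of the JAK, STAT, SOCS and PIAS list was higher in Treg, 12 of 22, with 0 lower. Cytokine receptors signal through JAK kinases to STAT factors, and SOCS proteins are induced by STATs and shut the receptor off. Jak3, the kinase of the common gamma chain, measured 1.93 and 1.98 in Tconv and 2.99 and 3.07 in Treg, a difference of 1.07 ± 0.09 (adjusted p = 0.000852). Jak2 was higher by 0.58, and Jak1 (-0.01) and Tyk2 (0.18) were not called. Of 7 STATs 6 were higher, and Stat4, used by interleukin-12, measured 1.77 and 1.81 in Tconv and 3.19 and 3.38 in Treg, a difference of 1.49 ± 0.17. Stat3, used by interleukin-6 and interleukin-10, measured 3.73 and 3.81 in Tconv and 4.80 and 4.83 in Treg, a difference of 1.04 ± 0.09, and Stat6 (0.39) was the STAT that was not called. The 4 higher inhibitors were Cish, Socs2, Socs5 and Socs3. Socs2, known as a STAT5 target, measured -3.27 and -3.58 in Tconv and 0.86 and 0.70 in Treg, a difference of 4.20 ± 0.50 (adjusted p = 0.00267). Socs5 measured -2.20 and -1.98 in Tconv and -0.08 and -0.12 in Treg and Socs3 1.95 and 1.93 in Tconv and 2.99 and 3.01 in Treg, differences of 1.99 ± 0.10 and 1.06 ± 0.29. Socs1 (0.16) and the 3 PIAS genes tested, Pias1, Pias2 and Pias4, were not called. Higher STATs numbered 3 without 1 array. Socs3 did not pass without any 1 of the 4 arrays (adjusted p = 0.133).

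Cish, a classical STAT5 target that dampens cytokine receptors, measured 2.27 and 2.21 in Tconv and 5.16 and 5.31 in Treg, a difference of 2.997 ± 0.10 (adjusted p = 7.58e-05). Its start is shown with matches to the STAT letters TTCNNNGAA in capitals (chr9:107296509-107296688, plus strand), which begin at bases 1 and 12 of the transcript. These letters were in the windows of Cish and Socs3, 2 of the 5 SOCS and PIAS genes with a window, against 8.6% of tested genes and 8.3% of all windows.
Cish: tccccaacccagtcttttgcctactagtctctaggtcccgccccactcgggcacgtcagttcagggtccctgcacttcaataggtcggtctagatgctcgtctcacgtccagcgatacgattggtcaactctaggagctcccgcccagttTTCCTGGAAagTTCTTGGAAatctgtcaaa

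Helper cytokines were low in Treg where they differed. Of 9 helper cytokine genes tested, 5 were lower and 0 higher. Il21, the cytokine of follicular help, measured 0.12 and 0.20 in Tconv and -3.38 and -6.11 in Treg, where 1 of the 2 arrays was above background, a difference of -4.90 ± 1.01 (adjusted p = 0.0147). Il4 measured 1.30 and 1.32 in Tconv and -2.58 and -2.03 in Treg, a difference of -3.62 ± 0.40 (adjusted p = 0.00212). Il13 was lower (-3.09), Csf2 by at least 10.3-fold, and Il2, above background on 1 of the 2 Treg arrays, measured -3.61 and -4.07 in Tconv and -3.71 and -4.05 in Treg and was not called. The summed innate-like T and NK cell markers, 93.5 and 92.2 in Tconv and 51.8 and 48.6 in Treg, moved with these genes, and their part was not tested. Among 9 inhibitory and repair cytokines Areg, a growth factor of tissue repair, was at least 7.7-fold higher (adjusted p = 0.00699). Il10 was below background in Tconv and measured -2.75 and -2.02 in Treg, and was not called (adjusted p = 0.0521, or 0.00225 from the wild-type arrays alone). Tgfb1 (0.21) was not called. Lower helper cytokines numbered 3 to 5 without 1 array. Il21 did not pass without either Tconv array (adjusted p = 0.0772).

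The signalling chain of the antigen receptor held more lower than higher genes. Of 55 tested genes 25 were lower and 11 higher, with a median of -0.27. Without 1 array between 6 and 13 were lower. Of 7 receptor chains and co-receptors 5 were lower and 0 higher. Cd247, the zeta chain, measured 2.84 and 2.77 in Tconv and 1.96 and 2.02 in Treg, a difference of -0.82 ± 0.21 (adjusted p = 0.028). Cd28 measured 5.89 and 5.91 in Tconv and 5.14 and 5.32 in Treg, a difference of -0.67 ± 0.14 (adjusted p = 0.0142), and the groups did not overlap for either. Cd3g (-0.51) and Cd3e (-0.28) were lower by less. Of 12 kinases 5 were lower and 2 higher. Lck, the kinase bound to CD4, was lower (-0.44 ± 0.10), and Zap70 (-0.11) was not called. Of 22 adaptors and effectors 9 were lower and 3 higher; the lower ones included Lat (-0.82 ± 0.15), the membrane scaffold of the pathway, and Themis (-0.96 ± 0.17), which sets thymocyte signalling thresholds. Relatives differed: the Tec kinases Txk (-0.80) and Tec (0.92) moved apart, as did the exchange factors Vav1 (-0.34) and Vav2, which measured -3.31 and -3.09 in Tconv and -1.78 and -1.52 in Treg and was higher by 1.55 ± 0.13 (adjusted p = 0.000901). The 14 inhibitory phosphatases and adaptors were split, with 6 higher and 6 lower. Ubash3b, a phosphatase that acts on receptor kinases (1.02), Ptpn22 (0.68) and Cd5 (0.60) were higher, and Pag1, which recruits an inhibitory kinase to the membrane and was above background on 1 of the 2 Treg arrays (-1.32), Sla2 (-0.94) and Ptpn6, which encodes SHP-1 (-0.65), were lower. Lower kinases numbered 1 without 1 array, lower receptor chains 1 to 3, lower adaptors and effectors 0 to 5, higher genes of the whole list 4 to 7 and higher inhibitory genes 0 to 3. Cd247, Cd3e, Lck, Vav1 and Cd5 did not pass without any 1 of the 4 arrays, nor Cd28, Lat and Ubash3b without a Tconv array or Treg replicate 1, nor Cd3g without Tconv replicate 2, nor Themis without a Tconv array or Treg replicate 2, nor Ptpn22 without either Tconv array (adjusted p up to 0.192). Cd247 and Vav1 also did not pass with the probes of a gene averaged, nor Cd3e and Vav1 with the percentile over detected probes, nor Vav1 with quantile normalization, nor Cd5 with median scaling.

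**Figure D4:**
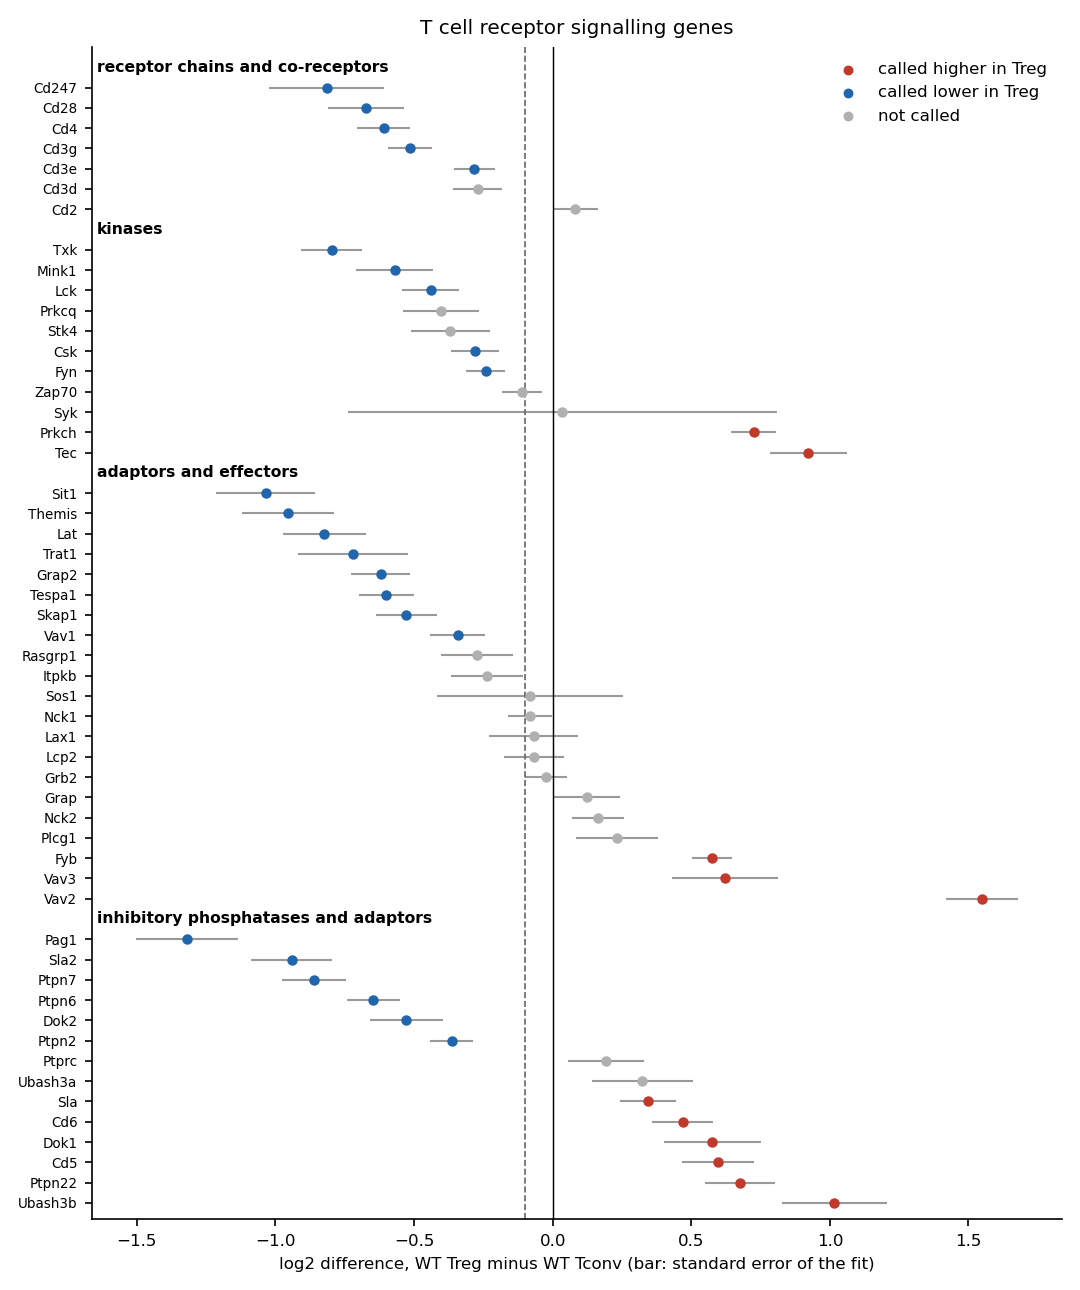
Log2 difference, WT Treg minus WT Tconv, with the standard error of the fit, for 53 of the 55 T cell receptor signalling genes in 4 roles; red and blue points passed the test, the solid line marks 0 and the dashed line the median of all genes (-0.10). Receptor chains and most adaptors that passed are on the left, Vav2 is 1.55 to the right, and the inhibitory genes spread from Pag1 (-1.32) to Ubash3b (1.02).

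Genes that receptor signals induce or that limit them went both ways. Of 25 ERK phosphatases, Sprouty, Spred and Ras GTPase activators 6 were higher and 6 lower. Spry1, an inhibitor of the Ras pathway, measured -2.20 and -2.36 in Tconv and 1.73 and 2.24 in Treg, a difference of 4.26 ± 0.24 (adjusted p = 0.00028). The cytoplasmic ERK phosphatase Dusp6 was lower (-1.38) and Dusp10 (-1.14), while Dusp14 (1.33) and Dusp16 (1.07) were higher. Egr1, an immediate target of ERK, measured 4.41 and 4.37 in Tconv and 3.58 and 3.78 in Treg, a difference of -0.71 ± 0.11, and its corepressor Nab2 fell by 1.097 ± 0.21. The nuclear receptors Nr4a2 (3.23 ± 0.20) and Nr4a3 (1.87 ± 0.45) were higher, and Nr4a1 (0.61) was not called. Irf5, best known in myeloid cells, measured -3.39 and -2.24 in Tconv and 0.31 and 0.15 in Treg, a difference of 3.04 ± 0.41 (adjusted p = 0.00388), and Irf8 was higher by 1.74. Batf (0.97) and Fosl2 (1.31) were higher, and Fos (-0.05), Irf4 (0.21) and Myc (0.19) were not called. Antagonists of Myc went both ways, with Mxd1 higher by 2.05 ± 0.12 and Mxd3 lower (-1.67 ± 0.15). Among ubiquitin ligases Peli2 was at least 10.6-fold higher, and Nedd4 measured 1.53 and 1.53 in Tconv and -1.59 and -1.83 in Treg, a difference of -3.24 ± 0.16 (adjusted p = 0.000209). Of 41 genes of the PI3K and mTOR pathway 10 were higher and 5 lower: Phlpp1, a phosphatase that switches AKT off, was higher by 2.67 ± 0.18, and Sgk1, a kinase downstream of mTOR complex 2, was lower (-1.86 ± 0.16). Lower ERK phosphatases and relatives numbered 1 to 4 without 1 array, higher PI3K and mTOR genes 5 to 7 and lower ones 1. Dusp10, Dusp14 and Nab2 did not pass without any 1 of the 4 arrays, nor Egr1 without Tconv replicate 1, nor Nr4a3 without either Tconv array, nor Batf without a Tconv array or Treg replicate 2 (adjusted p up to 0.132).

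Of 14 TCF, HMG-box, E and Id protein genes, among them factors of naive and early T cells, 5 were lower and 0 higher. Lef1 measured 7.48 and 7.53 in Tconv and 6.35 and 6.31 in Treg, a difference of -1.18 ± 0.26 (adjusted p = 0.0194). Satb1, a chromatin organiser of thymocytes, measured 7.15 and 7.18 in Tconv and 5.60 and 5.68 in Treg, a difference of -1.52 ± 0.28 (adjusted p = 0.0107). Tcf7 was lower (-0.75 ± 0.17), and so was Id2 (-2.50 ± 0.47), which blocks E proteins, while Id3 (0.05) was not called. Of 32 lineage factors 11 were higher and 7 lower. Zbtb32, a repressor of T cell proliferation, was below background in Tconv and at least 62.3-fold higher in Treg (adjusted p = 0.00506). Bhlhe40 measured -3.11 and -2.82 in Tconv and 1.14 and 1.36 in Treg, a difference of 4.21 ± 0.41, and Hopx, a homeodomain protein that does not bind DNA, measured -0.86 and -0.60 in Tconv and 3.77 and 3.79 in Treg, a difference of 4.51 ± 0.31. Nfil3 (2.96), the aryl hydrocarbon receptor Ahr (1.84), the follicular factor Bcl6 (1.75) and Myb (1.54) were higher. Zbtb7b, which encodes ThPOK (-0.96 ± 0.17), Runx3 (-1.26 ± 0.20) and Runx1 (-0.74 ± 0.08) were lower. The largest fall of the lineage factors was that of Zbtb16, which encodes PLZF, a factor of innate-like T cells, at 2.20 and 2.12 in Tconv and -3.11 and -3.75 in Treg (-5.59 ± 0.23). The innate-like T and NK cell marker sums given above, whose list holds it, moved with it. Within the Ikaros family Ikzf1 measured 3.95 and 4.01 in Tconv and 2.68 and 2.58 in Treg and fell by 1.35 ± 0.13, while Ikzf2, Ikzf4 (4.11) and Ikzf3 (0.65) were higher. Gata3 (0.06) was not called. Tbx21 (-0.12 and 0.20 in Treg against 2.01 and 1.98 in Tconv), Maf (1.55), Prdm1 (1.102) and Eomes (1.79) were not called over the 8 arrays, at adjusted p of 0.0857, 0.184, 0.151 and 0.141, but passed in the wild-type arrays alone, at 0.00234, 0.0017, 0.00305 and 0.000658. The spread of these 4 genes thus depends on whether the precursor arrays are counted. Of 54 chromatin genes 8 were higher and 14 lower (14.8% and 25.9%), close to the 14.4% and 22.9% over all genes. Among them the histone deacetylase Hdac9 was at least 22.1-fold higher, and Tet1 (-1.46 ± 0.30) and Dnmt1 (-1.08 ± 0.08) were lower. Lower TCF, HMG-box, E and Id genes numbered 0 to 1 without 1 array, higher chromatin genes 3 to 5 and lower ones 6 to 7. Lef1, Tcf7, Id2, Nfil3 and Tet1 did not pass without any 1 of the 4 arrays, nor Satb1 without a Tconv array or Treg replicate 1, nor Zbtb7b without either Tconv array, nor Ikzf3 without Tconv replicate 2 or Treg replicate 2 (adjusted p up to 0.112). Ikzf3 also did not pass with median scaling, nor Ikzf3 in the wild-type arrays alone.

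Immature thymocyte genes were more often lower than higher in Treg, and maturation and exit genes more often higher than lower. Of 23 immature thymocyte and recombination genes 12 were lower and 2 higher, and the double-positive marker sums given above moved with them. Both lists hold some of the same genes, Ccr9, Dntt and Rag2 among them, and Ccr9 and Dntt carry most of the fall of the sums. Dntt, which adds bases at receptor gene joints, measured 4.11 and 4.12 in Tconv and 1.88 and 1.29 in Treg, a difference of -2.52 ± 0.36 (adjusted p = 0.00485). Rag2, a subunit of the recombinase, was below background in Treg and at least 3.78-fold lower. Cd24a, a surface protein lost late in maturation, was lower (-0.95 ± 0.19). Of 22 maturation and exit genes 9 were higher and 3 lower: the class I chain H2-K1 was higher by 0.66 ± 0.10 and Gimap3, a survival GTPase, by 0.96 ± 0.08, while Gimap4 was lower (-0.29 ± 0.08). Among KLF and FOXO factors, which control quiescence and exit, 8 of 19 were higher and 2 lower. Klf9 measured -1.99 and -2.21 in Tconv and -0.85 and -0.16 in Treg, a difference of 1.598 ± 0.24, and Klf3 measured 3.83 and 3.83 in Tconv and 4.97 and 5.197 in Treg, a difference of 1.25 ± 0.11. Foxo1 was higher by 0.45, and Foxp1 (-0.08) was not called. Of 19 Notch pathway genes 4 were higher and 4 lower, with Notch2 higher by 1.15 ± 0.15 and Notch1 (0.21) not called. The Notch coactivators Maml2 (-1.20 ± 0.09) and Maml3 (-1.71 ± 0.26) and the Notch target Dtx1 (-1.55 ± 0.31) were lower. Lower immature thymocyte genes numbered 5 to 7 without 1 array, lower maturation genes 1 to 2, higher KLF and FOXO factors 4 to 6, higher Notch genes 1 to 2 and lower ones 2 to 4. Rag2, Cd24a, Gimap4 and Foxo1 did not pass without any 1 of the 4 arrays, nor Dtx1 without a Tconv array or Treg replicate 2 (adjusted p up to 0.18). Rag2 and Gimap4 also did not pass with the percentile over detected probes, nor Rag2 with normexp background, nor Rag2 and Gimap4 with the probes of a gene averaged, nor Gimap4 with quantile normalization, nor Foxo1 with median scaling.

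Receptors of migration held large differences in both directions. Of 15 chemokine receptors 5 were higher and 3 lower. Cxcr5, which leads cells to B cell follicles, measured -4.19 and -4.04 in Tconv and 1.40 and 1.63 in Treg, a difference of 5.63 ± 0.94 (adjusted p = 0.00776). Ccr9, a thymic and gut homing receptor, measured 5.70 and 5.72 in Tconv and 2.39 and 2.31 in Treg, a difference of -3.36 ± 0.51 (adjusted p = 0.00564). The samples of the groups were far apart for both, and the rule that picked these genes required that the groups not overlap. Ccr4, which guides thymocytes to the medulla, was lower (-1.11 ± 0.18), and Ccr7 (-0.02), which does so too, was not called. Ccr3 was below background in Tconv and at least 5.56-fold higher. S1pr1, the receptor that lets mature thymocytes leave, was higher by 1.29 ± 0.06. Of 19 integrin chains 6 were higher and 1, Itgb3 (-2.40 ± 0.24), lower. Itgb8, whose dimer frees active TGF-beta, and Itga9 were below background in Tconv and at least 11.1-fold and 11-fold higher, and Itgb5, above background on 1 of the 2 Tconv arrays, was higher by 3.45 ± 0.98. Other adhesion genes rose more often than they fell, 13 against 4 of 28. Nectin2, a ligand of inhibitory and activating receptors, was at least 7.95-fold and Alcam, the ligand of CD6, at least 8.83-fold higher. Higher chemokine receptors numbered 2 to 3 without 1 array, higher integrins 3 to 6, higher adhesion genes 7 to 9 and lower ones 2. Cxcr5 and Ccr4 did not pass without Tconv replicate 1, nor Ccr3 and Itgb5 without any 1 of the 4 arrays (adjusted p up to 0.168). Ccr3 and Itgb5 also did not pass with normexp background.

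Guidance receptors and G protein-coupled receptors (GPCRs) also differed gene by gene. Nrp2, a co-receptor of semaphorins and relative of the regulatory marker Nrp1, measured -4.03 and -3.28 in Tconv and 2.62 and 1.48 in Treg, a difference of 5.71 ± 0.42 (adjusted p = 0.000569). Sema3f, a ligand of Nrp2, was below background in Treg and at least 12.6-fold lower (adjusted p = 0.000236). Sema4a was lower (-2.10 ± 0.19), and Sema7a was higher by 1.67 ± 0.20. Of 52 GPCRs 12 were higher and 14 lower. Ptger2, a receptor of prostaglandin E2 that raises cyclic AMP, was below background in Tconv and at least 54.4-fold higher (adjusted p = 6.96e-05). Vipr1, which also raises cyclic AMP, measured 4.94 and 4.86 in Tconv and 2.82 and 2.51 in Treg, a difference of -2.24 ± 0.19 (adjusted p = 0.000985). Adora2a, the adenosine receptor of T cells, was higher by 1.97 ± 0.43, the gut homing receptor Gpr15 at least 10.9-fold higher, and the leukotriene receptor Ltb4r1 higher by 3.24 ± 0.82. Adgrg3, an adhesion GPCR, measured 3.42 and 3.31 in Tconv and -0.70 and -1.24 in Treg, a difference of -4.33 ± 0.31. Of 11 RGS genes, whose products end G protein signals, Rgs9 was at least 157-fold higher and Rgs1 higher by 4.48 ± 0.22, Rgs19 was lower (-0.58), and Rgs2 (-0.33) and Rgs3 (-0.17) were not called. Higher GPCRs numbered 5 to 8 without 1 array and lower ones 6 to 11. Adora2a, Gpr15 and Ltb4r1 did not pass without any 1 of the 4 arrays (adjusted p up to 0.12).

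Inhibitory receptors were more often higher than lower. Of 22 checkpoint receptors and their ligands, 13 were higher and 3 lower, with a median of 1.92. Among the 17 above background on all 4 arrays, 8 were higher and 3 lower, with a median of 0.34. Lag3, which binds MHC class II and was above background on 1 of the 2 Tconv arrays, measured -3.26 and -4.17 in Tconv and -0.47 and -0.53 in Treg, a difference of 3.21 ± 0.82 (adjusted p = 0.0287). Pdcd1, which encodes PD-1, measured 2.37 and 2.40 in Tconv and 4.13 and 4.65 in Treg, a difference of 2.01 ± 0.23 (adjusted p = 0.00243). Its ligands were higher too, Pdcd1lg2 by 2.10 ± 0.28 and Cd274 by 0.50 ± 0.11. Cd101, an inhibitory immunoglobulin receptor, was higher by 2.21 ± 0.20. Lilrb4a, an inhibitory receptor with a near-identical neighbour, was at least 37.9-fold higher, so that its own share is uncertain. Lair1, an inhibitory collagen receptor, measured -0.08 and 0.18 in Tconv and -1.07 and -1.20 in Treg, a difference of -1.19 ± 0.21, and Btla (-0.09) and Icos (-0.07) were not called. Killer lectin-like receptors went the opposite way: 12 of 21 were lower and 1, the inhibitory Klrg1 (at least 51.8-fold), was higher. Of the 21, 12 were not detected in Treg and so entered the test only through Tconv. Among the 5 above background on all 4 arrays, 3 were lower and 0 higher. Klrb1c, which encodes NK1.1, measured 1.46 and 1.53 in Tconv and -4.92 and -5.29 in Treg. The probe was not well above background on either Treg array, which makes it at least 56.9-fold lower (adjusted p = 0.00469), while another probe of the gene was above background on 1 of those arrays. Klrd1, the partner of NKG2 receptors, measured 1.33 and 1.31 in Tconv and -2.15 and -3.42 in Treg, a difference of -4.11 ± 0.92. Ly49 (Klra) genes have near-identical copies, so single members are uncertain, and without 1 array 4 to 7 of the family were lower. The innate-like T and NK cell marker sums given above moved with this family. The marker list holds members of the family, Klrb1c and Klrd1 among them, so this was partly fixed in advance. The part of innate-like cells in the family's fall was not tested. Enzymes and receptors of extracellular purines were split, 8 higher and 5 lower of 17. P2rx7, a channel opened by extracellular ATP, was higher by 2.46 ± 0.14, Cd38, which consumes NAD, by 2.38 ± 0.59, and Nt5e, which makes adenosine, by 2.87 ± 0.34, while Ada, which removes adenosine, was lower (-0.95 ± 0.16). Lower checkpoint genes numbered 0 to 1 without 1 array, higher purine genes 3 to 4 and lower ones 2 to 4. Lag3 and Cd38 did not pass without any 1 of the 4 arrays, nor Cd274 and Klrd1 without a Tconv array or Treg replicate 2, nor Lair1 without Tconv replicate 2 or Treg replicate 2, nor Ada without either Tconv array (adjusted p up to 0.142).

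TGF-beta signalling showed opposite changes among its receptors. Of 32 genes 10 were higher and 10 lower. Tgfbr1, the type I receptor, measured 1.18 and 1.26 in Tconv and 3.13 and 2.98 in Treg, a difference of 1.84 ± 0.13 (adjusted p = 0.00049). Acvrl1, another type I receptor of the family, measured 2.68 and 2.78 in Tconv and -0.07 and -1.02 in Treg, a difference of -3.28 ± 0.37 (adjusted p = 0.00232). The co-receptors Eng (-2.67 ± 0.38) and Tgfbr3 (-1.96 ± 0.23) were lower with it. Tgif1, a repressor of SMAD targets, measured 0.58 and 0.56 in Tconv and 3.96 and 4.13 in Treg, and its difference of 3.47 ± 0.09 had an adjusted p of 5.84e-05. The inhibitory Smad7 was higher by 0.69 ± 0.08, and Smad2 (-0.07), Smad3 (-0.30) and Smad4 (-0.09) were not called. Lower TGF-beta genes numbered 3 to 4 without 1 array.

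Genes of cell death held some large rises. Of 19 BCL2 family genes 6 were higher and 1 lower. Pmaip1, which encodes the BH3-only protein NOXA, measured -4.02 and -3.28 in Tconv and 0.72 and 0.67 in Treg, with 1 of the 2 Tconv arrays above background, a difference of 4.35 ± 0.34 (adjusted p = 0.0007). Bcl2a1d, a survival member with near-identical copies, was higher by 1.29 ± 0.14, and Mcl1 by 0.60 ± 0.11. Bcl2 (-0.36) and Bcl2l11 (0.03), which encodes BIM, were not called. Among 16 caspases and their partners 4 were higher. The inflammatory caspases Casp4 (-1.66 and -1.81 in Tconv and 2.78 and 2.99 in Treg) and Casp1 (-1.53 and -1.81 in Tconv and 2.09 and 2.17 in Treg) rose by 4.62 ± 0.42 and 3.80 ± 0.52. Casp9 (0.14) and Casp2 (-0.08) were not called, and Birc5, a mitotic inhibitor of apoptosis, was lower (-1.36) with the cell cycle genes. Higher BCL2 family genes numbered 3 to 4 without 1 array. Mcl1 did not pass without a Tconv array or Treg replicate 2 (adjusted p = 0.066).

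Genes of protein and energy production shifted down by small amounts, cytosolic ribosomal proteins excepted. Of 77 mitochondrial ribosomal protein genes 41 were lower and 1, Mrpl32 (0.43), higher, with a median of -0.28. Mrps28 measured 3.45 and 3.47 in Tconv and 2.63 and 2.49 in Treg, the largest fall of the list (-0.90 ± 0.09). Of 43 genes of ribosome assembly 27 were lower and 0 higher, with a median of -0.35, and Wdr12 measured 0.75 and 0.75 in Tconv and -0.34 and -0.19 in Treg, a difference of -1.01 ± 0.14. Of 61 nuclear genes of the respiratory chain 26 were lower and 2 higher, with a median of -0.24. In contrast, 4 of 82 cytosolic ribosomal protein genes were higher and 1 lower, with a median of 0.03, above the -0.10 of all genes. Rpl39l, a testis paralog of a ribosomal gene, was the highest of them (at least 6.86-fold), and near-identical copies leave its own share uncertain. These small shifts depended on scaling and on single arrays. With median scaling 62 mitoribosomal and 44 respiratory chain genes were lower, and the median of cytosolic ribosomal genes turned to -0.13. Without 1 array 7 to 18 mitoribosomal, 6 to 11 ribosome assembly and 1 to 7 respiratory chain genes were lower. Against all genes the medians were -0.18 for mitoribosomal, -0.25 for ribosome assembly, -0.14 for respiratory chain and 0.13 for cytosolic ribosomal genes. Higher cytosolic ribosomal genes numbered 0 to 1 without 1 array. Mrpl32 did not pass without a Tconv array or Treg replicate 2, nor Rpl39l without a Tconv array or Treg replicate 1 (adjusted p up to 0.181). Rpl39l also did not pass with quantile normalization.

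Genes of stress in the endoplasmic reticulum (ER) were more often lower than higher. Of 35 ER stress and ATF4 target genes 14 were lower and 2 higher (5 to 8 lower without 1 array). Eif2ak3, which encodes the stress sensor PERK, measured 2.003 and 2.003 in Tconv and 0.80 and 0.82 in Treg, a difference of -1.19 ± 0.15 (adjusted p = 0.00329). Hyou1 measured -1.67 and -1.71 in Tconv and -2.74 and -2.50 in Treg, a difference of -0.93 ± 0.12. The chaperones Hsp90b1 (-0.53 ± 0.16) and Calr (-0.59 ± 0.08), the disulfide isomerases Pdia4 (-0.59) and Pdia6 (-0.66 ± 0.12) and the secreted Creld2 (-0.65 ± 0.11) were lower, and Hspa5 (-0.29), which encodes BiP, was not called. Asns, which makes asparagine and is an ATF4 target, measured -2.96 and -3.02 in Tconv and -0.84 and -0.83 in Treg and was higher by 2.16 ± 0.59, whereas the ATF4 target Psat1 was lower (-1.02 ± 0.07). The ER stress element, spelled CCAAT and, 9 bases of any kind later, CCACG, and therefore holding a CCAAT box, was in the windows of 6 of 12 lower genes with a window. Over the whole ER stress and ATF4 target list, called or not, it was in 7 of 31 genes with a window. Over all tested genes it was in 18 of 10292 and over all windows in 39 of 32851. Hsp90b1, Creld2 and Pdia6 are shown with the element on either strand in capitals, beginning between 98 and 126 bases before the start (chr10:86705415-86705594, minus strand, chr15:88819496-88819675, plus strand and chr12:17266439-17266618, plus strand). Hsp90b1, Pdia4 and Asns did not pass without any 1 of the 4 arrays, nor Pdia6 without Tconv replicate 1, nor Creld2 without a Tconv array or Treg replicate 1 (adjusted p up to 0.188). Hsp90b1 also did not pass with quantile normalization, nor Hsp90b1 with the percentile over detected probes.
Hsp90b1: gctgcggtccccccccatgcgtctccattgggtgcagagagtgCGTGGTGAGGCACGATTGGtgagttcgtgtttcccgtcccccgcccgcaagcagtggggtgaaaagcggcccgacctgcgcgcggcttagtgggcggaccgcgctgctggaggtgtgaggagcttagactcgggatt
Creld2: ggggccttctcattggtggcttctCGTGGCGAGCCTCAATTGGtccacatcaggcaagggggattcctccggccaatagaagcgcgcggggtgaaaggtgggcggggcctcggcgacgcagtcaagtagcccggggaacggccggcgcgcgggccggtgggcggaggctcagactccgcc
Pdia6: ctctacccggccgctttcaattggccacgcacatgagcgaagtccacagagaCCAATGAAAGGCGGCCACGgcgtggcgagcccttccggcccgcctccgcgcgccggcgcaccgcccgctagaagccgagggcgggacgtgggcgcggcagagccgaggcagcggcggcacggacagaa

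Metabolic genes differed in both directions. Of 38 glycolysis and hypoxia genes 11 were higher and 9 lower. Eno2 measured -1.09 and -1.01 in Tconv and 1.25 and 1.04 in Treg, a difference of 2.20 ± 0.13, and its common paralog Eno1 was lower (-0.57 ± 0.08). Hk2, the inducible hexokinase, was higher by 1.41 ± 0.23 and Slc16a3, a lactate exporter, by 2.49 ± 0.13, while Pkm (-0.54 ± 0.13) and Ldha (-0.36 ± 0.07) were lower and Hif1a was higher by 1.02 ± 0.15. Of 33 sterol genes 6 were higher and 7 lower (18.2% and 21.2%), near the shares over all genes. Abca1, which exports cholesterol, was higher by 1.78 ± 0.20. Elovl7, an enzyme that lengthens fatty acids, measured 0.66 and 0.71 in Tconv and -3.66 and -3.39 in Treg, a difference of -4.21 ± 0.26 (adjusted p = 0.000378), and Acacb, which makes the brake on fatty acid oxidation, fell by 2.50 ± 0.11. Dgat2, which makes triglycerides, measured -2.03 and -2.37 in Tconv and 2.95 and 2.83 in Treg, a difference of 5.09 ± 0.13 (adjusted p = 5.07e-05). Of 39 NRF2 and redox genes 8 were higher and 10 lower. Gsta4, a glutathione transferase that clears lipid aldehydes, measured -3.95 and -3.71 in Tconv and 1.27 and 1.30 in Treg, a difference of 5.11 ± 0.11 (adjusted p = 4.56e-05). Srxn1 and the metallothionein Mt1 were below background in Tconv and at least 20.1-fold and 21.4-fold higher. Ncf1, a subunit of the phagocyte oxidase, was higher by 3.05 ± 0.23. Of 234 solute carriers 45 were higher and 46 lower (19.2% and 19.7%, against 14.4% and 22.9% over all genes). Slc22a2, an organic cation transporter, measured -4.56 and -4.43 in Tconv and 1.94 and 2.27 in Treg, with 1 of the 2 Tconv arrays above background, a difference of 6.60 ± 0.16 (adjusted p = 5.05e-05). Slc15a1, a peptide transporter, was at least 11.4-fold lower and Slc16a10, which carries aromatic amino acids, fell by 3.63 ± 0.32. Higher glycolysis and hypoxia genes numbered 3 to 6 without 1 array, lower ones 5 to 7, higher sterol genes 2 to 4, lower ones 1 to 5, lower redox genes 3 to 5, higher solute carriers 23 to 26 and lower ones 13 to 22. Hk2 did not pass without Tconv replicate 1, nor Pkm without any 1 of the 4 arrays, nor Ldha without a Tconv array or Treg replicate 1 (adjusted p up to 0.119).

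Secreted and surface products of other families held some of the widest gaps. Penk, the precursor of enkephalins, was below background in Tconv, measured 4.70 and 5.02 in Treg and was at least 935-fold higher. Cpe, an enzyme that trims such precursors, measured -4.99 and -4.20 in Tconv and 0.09 and 0.31 in Treg, with 1 of the 2 Tconv arrays above background, a difference of 4.80 ± 0.83 (adjusted p = 0.00861), whereas Pcsk1, a convertase that acts before it, was at least 3.96-fold lower. Among glycosyltransferases Galnt14 was at least 93.2-fold higher (adjusted p = 0.0011). Of 24 ADAM, ADAMTS and MMP genes 7 were higher and 3 lower, with Adamts6 higher by 2.40 ± 0.09 and Mmp9, which cuts matrix, at least 4.9-fold lower. Among calcium and potassium channels Cacna1s was at least 23.1-fold higher and Kcnh3 lower (-2.69 ± 0.34). Phosphodiesterases, which break down cyclic nucleotides, also differed by member: Pde3b measured 4.05 and 4.04 in Tconv and 2.12 and 2.39 in Treg, a difference of -1.79 ± 0.22, Pde4a was higher by 1.42 ± 0.10, and Pde7b was at least 4.31-fold higher. Anxa4, a calcium-dependent membrane protein, measured -2.61 and -2.76 in Tconv and 0.34 and -0.01 in Treg, a difference of 2.84 ± 0.34. Of 326 Zfp zinc finger genes 35 were higher and 41 lower (11% and 13%), smaller shares than over all genes. Of 46 interferon-stimulated genes 13 were higher and 5 lower (28.3% and 10.9%, against 14.4% and 22.9% over all genes). Gbp3 was higher by 2.12 ± 0.30 and Oas2 lower (-2.39 ± 0.39). Higher ADAM, ADAMTS and MMP genes numbered 2 to 6 without 1 array, higher Zfp genes 9 to 20, lower ones 7 to 19, higher interferon-stimulated genes 6 to 7 and lower ones 2 to 4. Cpe did not pass without Tconv replicate 1, nor Pcsk1 without Tconv replicate 2 (adjusted p up to 0.0588).

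MHC class II genes were higher in Treg, and their 2 Treg samples differed from each other. Of 15 genes of class II presentation 8 were higher and 0 lower. H2-Ab1, a class II chain, measured 2.32 and 2.42 in Tconv and 5.54 and 3.84 in Treg, a difference of 2.32 ± 0.54 (adjusted p = 0.022). H2-Aa, its partner, measured -1.31 and -1.78 in Tconv and 1.92 and 0.29 in Treg, a difference of 2.65 ± 0.54 (adjusted p = 0.0144). Both were higher in each Treg sample than in either Tconv sample, and replicate 1 stood well above replicate 2. Macrophage genes showed that same order: C1qc measured -5.68 and -5.80 in Tconv and 1.31 and -0.94 in Treg and Lyz2 -4.40 and -4.21 in Tconv and -1.08 and -1.87 in Treg, and of the Tconv arrays 0 and 1 were above background for them. The costimulatory gene Cd86 (-1.18 and -1.03 in Tconv and 2.07 and 2.21 in Treg), the protease Ctss (4.82 and 4.81 in Tconv and 6.14 and 6.16 in Treg) and H2-Oa (1.57 and 1.77 in Tconv and 3.13 and 2.94 in Treg) were alike in both Treg samples, with differences of 3.24 ± 0.17, 1.34 ± 0.19 and 1.37 ± 0.14. Of 12 chemokine ligands 4 were higher and 0 lower. Cxcl10, which attracts CXCR3-positive cells, measured -2.24 and -2.74 in Tconv and 0.71 and 0.80 in Treg, a difference of 3.24 ± 0.54, with like Treg samples. Ccl17, a ligand of CCR4, measured -3.41 and -3.44 in Tconv and 0.53 and -1.81 in Treg, with Treg samples apart. Ccl5 measured 1.49 and 1.49 in Tconv and 4.60 and 4.49 in Treg and was not called over the 8 arrays (adjusted p = 0.0908), and passed in the wild-type arrays alone (0.00033). The granulocyte genes S100a8 (-2.67 and -2.81 in Tconv and -1.003 and -6.29 in Treg) and S100a9 (-1.68 and -1.79 in Tconv and 0.73 and -6.50 in Treg) were above background on both Tconv arrays and on 1 Treg array and not called. The part of myeloid cells in the class II and chemokine values was not tested. Higher class II genes numbered 4 to 8 without 1 array and higher chemokine ligands 2 to 4. H2-Ab1, H2-Aa and Ccl17 did not pass without either Tconv array, nor C1qc without a Tconv array or Treg replicate 1, nor Lyz2 without any 1 of the 4 arrays, nor Cxcl10 without Tconv replicate 2 (adjusted p up to 0.128). C1qc and Lyz2 also did not pass with normexp background, nor Ccl17 in the wild-type arrays alone.

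**Figure D5:**
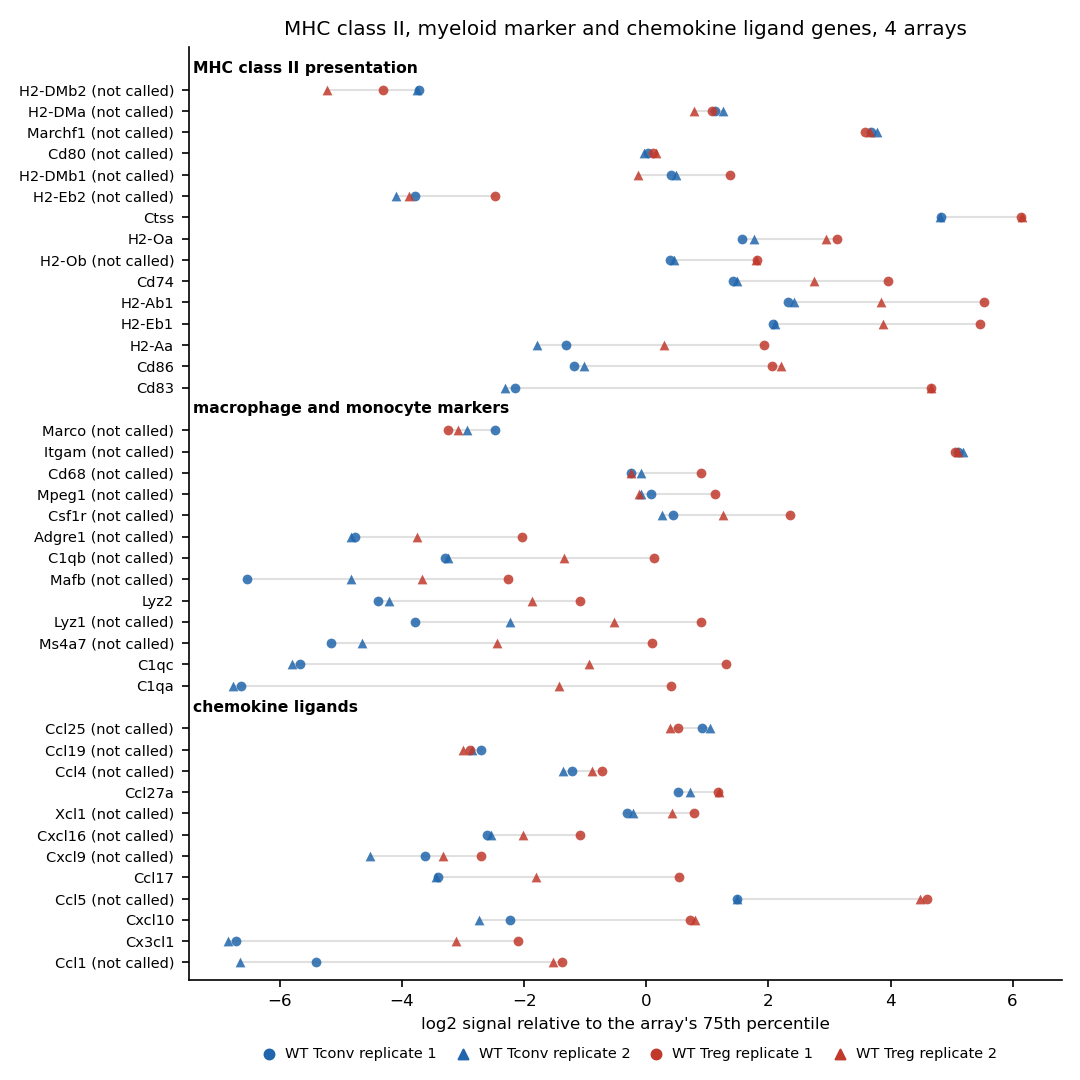
Log2 signal relative to the 75th percentile of each array for 15 MHC class II genes, 13 macrophage and monocyte markers and 12 chemokine ligands; blue are WT Tconv and red WT Treg, circles replicate 1 and triangles replicate 2. For H2-Ab1, H2-Eb1, H2-Aa, Cd74, the C1q genes and Ccl17 the red circle stands to the right of the red triangle, whereas for Cd83, Cd86, Ctss, H2-Oa, Ccl5 and Cxcl10 both lie together.

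Outside these families the leading differences were in genes of varied or unknown function. Among genes above background on all 4 arrays Lad1, a filament-anchoring protein of epithelia, measured -3.54 and -3.47 in Tconv and 2.46 and 2.16 in Treg, a difference of 5.81 ± 0.20 (adjusted p = 8.08e-05). Sptbn4, a spectrin of neurons, measured -3.42 and -3.62 in Tconv and 1.098 and 1.02 in Treg, a difference of 4.58 ± 0.10 (adjusted p = 4.51e-05). The predicted gene Gm4956 was higher by 7.66 ± 0.27, and as such predicted genes can have near-identical copies its own share is uncertain. Iglon5, an adhesion protein of neurons, and Pla2g4f, a phospholipase, were at least 124-fold and 90.1-fold higher. In the other direction F13a1, a subunit of clotting factor XIII, measured 2.75 and 2.78 in Tconv and -1.22 and -0.79 in Treg, a difference of -3.77 ± 0.53 (adjusted p = 0.00456). Akr1c18, a steroid dehydrogenase, measured 1.07 and 1.13 in Tconv and -3.11 and -2.78 in Treg, a difference of -4.05 ± 0.34 (adjusted p = 0.000887). Chdh, which oxidises choline, fell by 3.70 ± 0.27 and Asb2 (-3.23 ± 0.18), which directs proteins to degradation, was lower too. Mn1, a transcriptional regulator, and Ggt5, a glutathione-cleaving enzyme, were below background in Treg and at least 20.2-fold and 12.4-fold lower. For these 11 genes no sample of one group reached the level of the other, as for 78.4% of all tested genes. For those above background on all 4 arrays the rule that picked them required this.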

How the data were processed

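RNA from 4 wild-type thymocyte samples, 2 WT Treg and 2 WT Tconv, was analysed with the 4 precursor samples of the series on 1-colour arrays. Per the labels' protocols, Cy3-labelled RNA was made from 10 ng. The deposited scanner files hold the processed Cy3 intensity of each spot, from which background was subtracted but which was not scaled between arrays. The submitters' processing notes name Agilent Feature Extraction 10.7.1.1. A matrix of linear intensity, also deposited, differed from the scanner values by 1 factor per array (column medians 0.064 to 0.074). It served as an alternative, and how that factor was chosen is not given in the sources used here.

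Of 62976 spots, 3671 controls and 81 to 164 outlier spots per array were left out, and 0 were saturated. Values are log2 intensity minus the 75th percentile of the array. Of 55681 probes 28026 got a symbol through their RefSeq accession (GRCm38.p6 tables) and 27655 did not. The brightest probe stood for a gene. Genes had to be well above background on both arrays of a wild-type group. limma 3.58.1 in R 4.3.3 fitted the 4 group means over 8 arrays, with 4 residual degrees of freedom, and Benjamini-Hochberg adjustment was over 12855 genes. A gene of which no probe was above background on both arrays of a group is given as at least N-fold, from the bright group's mean to the dim group's detection level, and likewise where the probe shown was dim on both arrays. With 2 against 2 samples a permutation test cannot go below p = 0.333, so none was used. On simulated data for this comparison, with 50 of 12855 genes changed at each size, the fit recovered 40% of 1.5-fold and 64% of 2-fold changes. It recovered 84% of changes of 4-fold and 88% of those of 8-fold, with 9 false calls. Far fewer genes were changed there than the 4795 that passed in the data. The adjusted p cut is stricter with few changed genes, so these rates do not carry over to the data.

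The gene lists, members and tests were chosen with earlier results of these data known. Genes named are the 25 highest and lowest differences, the 8 largest bounds in each direction, up to 8 members per list by size or 3 by adjusted p, all members of roles of at most 20 genes, and the genes of the label check, of which the text gives a part. Other names, such as those of members that were not called, were chosen after their values were seen. Alternatives were other scalings, background correction, filters, probe rules, an intensity trend, the wild-type arrays alone, a replicate block and leaving out each array. The plots were made with matplotlib 3.10.9, and a few members of the lists are not reported here.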

Additional observations from a re-analysis of the deposited data

How the results depend on the processing

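Of the 264 passing genes named above, 183 passed under all of the 17 alternatives in which they were tested. For the alternatives that keep every array this number was 231, and 0 of the named genes reversed. Genes dim in 1 group were not tested where a probe had to be above background on all 4 arrays. Leaving out 1 array gave 1877 to 2647 passing genes, 919 to 1177 higher and 947 to 1499 lower, from fewer samples. It left 6 to 13 T cell receptor signalling, 4 to 7 killer lectin-like receptor, 1 to 7 respiratory chain, 7 to 18 mitoribosomal, 6 to 11 ribosome assembly and 5 to 8 ER stress genes lower. Median scaling, which moved all genes down, gave 4560 lower genes, 44 of the respiratory chain and 62 mitoribosomal. Quantile normalization and the percentile over detected probes gave 16 and 15 lower respiratory chain genes; the cause was not tested. With no filter on dim probes, where 21153 genes were tested, 1868 were lower, among them 15 T cell receptor signalling, 14 respiratory chain, 27 mitoribosomal and 15 ribosome assembly genes. Normexp background on median pixel signals, with an offset that shrinks dim differences, left 989 genes at 2-fold or more, 369 of them lower. Among genes above background on all 4 arrays, 8 of 17 checkpoint genes were higher and 3 of 5 killer lectin-like receptors lower, since fewer genes were tested. The replicate number as a block gave 4597 passing genes, 1836 higher and 2761 lower. Samples of 1 number did not deviate together (r = -0.0019 across genes). With 2 arrays a group this cannot tell whether the numbers pair the samples. Counts of lower G2/M, G1/S and histone genes and of higher NF-kB and JAK-STAT genes stayed within 1.5-fold under all alternatives, and the few calls in the other direction did not. Signal over background limits the 270 genes not detected in Tconv and the 328 not detected in Treg to bounds.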
